A study of Mus musculus with 27 samples.

Results

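The 895 windows described here were still low in methylation in wild-type mouse cells after the first day out of naive pluripotency. They made most of their gain on the second day, and they were below 30% methylated in naive cells without Tet enzymes. They were chosen from whole-genome bisulfite sequencing, which the authors reduced to percent methylation per window, the windows being named for 100 CpGs each. An autosomal window was taken when it had a value in all 27 libraries, a mean under 15% in TET_WT on D1, a mean at least 25 percentage points higher in TET_WT on D2 than on D1, and a mean under 30% in TET_KO on D0. The 895 windows were 0.212% of the 422141 complete autosomal windows and 34.7% of the 2580 windows that met both TET_WT criteria. These measured values chose the windows, so the levels of TET_WT on D1 and D2 and of TET_KO on D0 are given only as description.

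TET_KO lacks Tet1, Tet2 and Tet3, per the labels. DNMT_WT is the wild-type parent of another knockout line, not used here, and TET_WT that of TET_KO. Each line was sampled as embryonic stem cells in 2i and LIF (D0) and as epiblast-like cells on D1 and D2, with 3 libraries for each of the 9 groups. All groups share the 2i and LIF start, and how many clones stand behind TET_KO is not given in the sources used here, so effects of the knockout and of the clone cannot be told apart. Nothing states that replicates were separate cultures, so p-values measure only the spread between libraries. No counts or coverage come with the percentages, so depth is unknown and counting error cannot be stated. Bisulfite treatment does not separate methylcytosine from hydroxymethylcytosine, and the identity of the cells could not be checked from methylation alone.

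The de novo enzymes Dnmt3a and Dnmt3b add methyl groups to CpGs as naive cells leave the ground state, and Dnmt1 copies the pattern at replication. Tet enzymes oxidise methylcytosine, which opens a route to its removal, and they act strongly at enhancers. Naive pluripotency is held by a circuit of transcription factors that includes Nanog, Esrrb, Klf4, Tfcp2l1 and Tbx3. Enhancers of that circuit are active in 2i and LIF and are switched off in the change to the formative state that epiblast-like cells model.

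Sequences at transcription starts are shown for Sgk1, Spp1 and Tcl1, genes whose starts lay inside late-gain windows. They are RefSeq starts on GRCm38.p6, from 250 bases before to 50 bases after the start, printed 5′ to 3′ on the strand of the gene. Sgk1, which encodes a kinase induced by serum and glucocorticoids, had starts at chr10:21978422-21978721 (+) and chr10:21985854-21986153 (+), in adjoining late-gain windows. Capitals in the Sgk1 lines mark TCAAGGTCA, the recognition sequence of ESRRB, searched on both strands. Capitals in the line for Spp1, which encodes osteopontin, at chr5:104435942-104436241 (+), mark the octamer ATGCAAAT bound by OCT factors. Capitals in the line for Tcl1, a coactivator of AKT kinases, at chr12:105222688-105222987 (-), mark its 11 CpGs.
Sgk1 first start: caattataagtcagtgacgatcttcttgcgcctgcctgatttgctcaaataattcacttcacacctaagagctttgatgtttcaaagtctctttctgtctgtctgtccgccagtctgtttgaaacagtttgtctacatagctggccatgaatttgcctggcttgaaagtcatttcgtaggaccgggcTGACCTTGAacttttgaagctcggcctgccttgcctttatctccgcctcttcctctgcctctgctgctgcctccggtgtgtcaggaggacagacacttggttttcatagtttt
Sgk1 second start: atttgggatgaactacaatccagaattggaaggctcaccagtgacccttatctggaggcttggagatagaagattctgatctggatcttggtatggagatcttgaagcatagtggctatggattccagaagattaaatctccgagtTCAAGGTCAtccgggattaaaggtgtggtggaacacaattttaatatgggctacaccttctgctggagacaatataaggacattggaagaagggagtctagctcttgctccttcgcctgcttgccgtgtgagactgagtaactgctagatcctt
Spp1 start: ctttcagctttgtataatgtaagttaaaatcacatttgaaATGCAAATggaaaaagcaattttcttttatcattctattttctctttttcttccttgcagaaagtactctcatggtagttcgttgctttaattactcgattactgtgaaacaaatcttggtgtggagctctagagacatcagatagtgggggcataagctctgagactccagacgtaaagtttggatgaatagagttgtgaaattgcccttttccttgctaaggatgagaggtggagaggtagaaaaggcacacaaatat
Tcl1 start: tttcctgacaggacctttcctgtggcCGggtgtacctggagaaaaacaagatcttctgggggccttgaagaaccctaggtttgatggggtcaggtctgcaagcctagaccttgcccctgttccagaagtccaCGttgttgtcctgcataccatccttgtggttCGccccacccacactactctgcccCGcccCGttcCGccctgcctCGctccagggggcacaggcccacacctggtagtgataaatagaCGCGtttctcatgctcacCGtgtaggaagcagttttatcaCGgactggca

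In the first Sgk1 sequence the match began 63 bases before the start and lay on the opposite strand, and in the second it began 104 bases before the start. The Spp1 octamer began 210 bases before the start printed here. Another Spp1 start, at chr5:104434861-104435160 (+), lay upstream in the same window and its sequence held no octamer. Wholly inside late-gain windows lay 70 such sequences of 59 genes, 34 of them protein-coding, spread over 59 windows. The ESRRB sequence was in 2 of the 70 (2.86%), both of Sgk1, and in 0.417% of all 31396 sequences of the same length. The octamer was in 1.43% of the 70 and in 1.75% of all. Other sequences searched, with their shares of the 70 and of all, were E-box (1.43 and 7.14%), E2F6 (1.43 and 4.63%), KLF (1.43 and 1.34%), SOX (15.7 and 12.2%) and OTX2 (12.9 and 7.06%). A match is a description of letters and was not tested as a binding site. The median number of CpGs was 4 in the 70 and 7 in all, so these starts were CpG-poor.

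Averaged over the 895 windows, TET_KO had 21.5, 21.2 and 21.6% in its libraries on D0, 25.7, 25.7 and 26.9% on D1, and 53.0, 54.3 and 50% on D2. Libraries of DNMT_WT averaged 0.645, 0.718 and 0.736% on D0, 7.33, 7.5 and 7.75% on D1, and 44.2, 43.4 and 44.2% on D2. Those of TET_WT averaged 3.47, 3.57 and 3.51% on D0, 9.77, 7.6 and 9.81% on D1, and 39.5, 44.2 and 37.3% on D2. All lines therefore made most of their gain on the second day, which the choice of windows fixed for TET_WT. No library of one day overlapped another day of the same line. Group means on D2 were 52.4% ± 2.23 in TET_KO, 43.9% ± 0.478 in DNMT_WT and 40.3% ± 3.51 in TET_WT (SD, n = 3 each). The second TET_WT library stood apart from the other two on both days, low on D1 and high on D2. Since these values entered the choice, leaving out the second TET_WT library of D2 gave 726 windows and leaving out the third gave 1039.

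**Figure D1:**
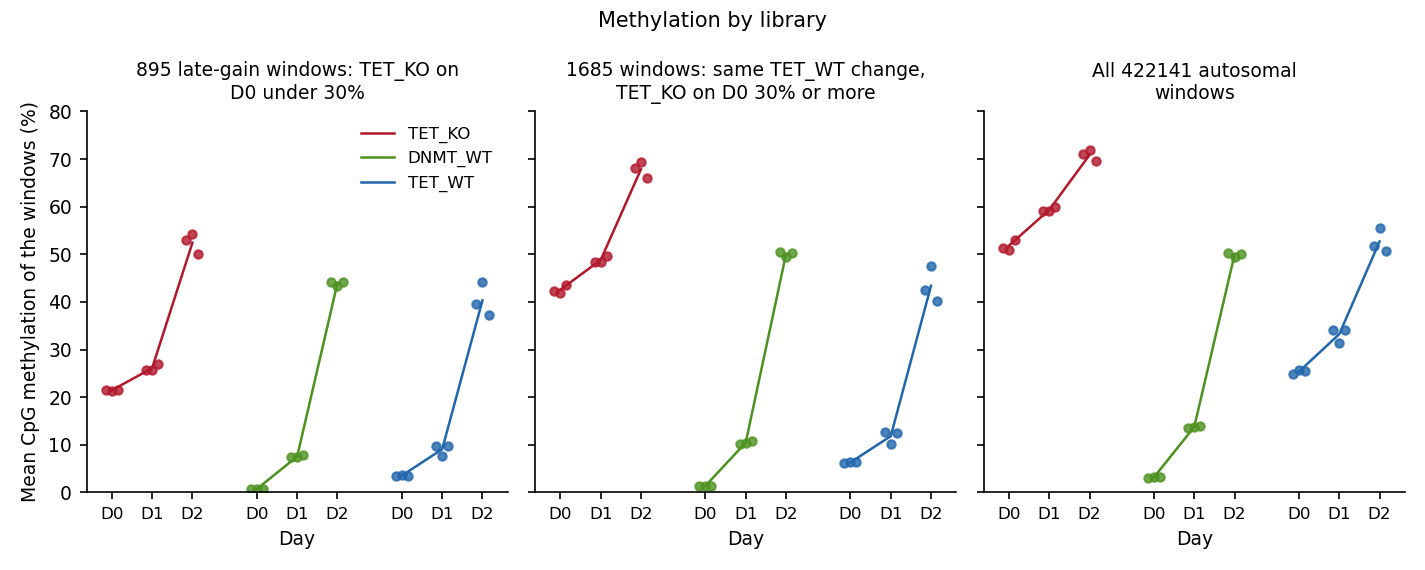
Mean CpG methylation (%, y axis) on D0, D1 and D2 for TET_KO, DNMT_WT and TET_WT, with a point for each library and a line through the means of 3 libraries. The left panel shows the 895 late-gain windows, the middle panel 1685 windows with the same TET_WT change and TET_KO of 30% or more on D0, and the right panel all 422141 autosomal windows. In the left panel the steep step lies between D1 and D2 in all 3 lines, which the choice of windows fixed for TET_WT. There TET_KO starts above the other lines on D0.

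Although picked for a low level in TET_KO on D0, the windows were more methylated there than in TET_WT, as was most of the genome. On D0 TET_KO was above TET_WT in 894 of the 895 windows by group mean, with a median difference of 18.8 points. That was so in 98.9% of all autosomal windows, with a larger median of 27.7 points. In 892 windows every TET_KO library of D0 lay above every TET_WT library, a count that was not made over all windows. On D1 the median difference was 17.8 points and on D2 it was 12.2 points, with 868 windows above 0 and 27 below on D2. Over all autosomal windows the D2 median was 17.8 points, and 98.5% were above 0. What the rule fixed was a shortfall: TET_KO on D0 stood above TET_WT on D2 in 1 of the 895 windows, with a median of -18.2 points. Over all autosomal windows that median was -1.04 points, with averages of 51.8% in TET_KO on D0 and 52.7% in TET_WT on D2. These are descriptions without a test, because the rule used TET_KO on D0 and TET_WT on D1 and D2.

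On the second day, from D1 to D2, TET_KO gained methylation in 888 of the 895 windows (99.2%), called at an adjusted p under 0.05 and at least 10 points with limma across all 444250 windows. Of all windows tested, 65.8% were called higher in this comparison. The median difference in the late-gain windows was 26.3 points, with a range of 5.92 to 50.9 and a median standard error of 2.02. Its median over all autosomal windows was 11.6 points. At a minimum of 20 points, 739 late-gain windows (82.6%) were called, against a background of 2.86% of all windows. The starts were unlike: on D1 TET_KO averaged 26.1% in the late-gain windows and 59.3% over all autosomal windows. The limit on TET_KO on D0 favours a low start, and whether the start bears on the size of the gain was not tested. The 3 D2 libraries lay above the 3 D1 libraries in 894 of the 895, a count that was not made over all windows. At any size of gain, 393759 of the 422141 autosomal windows passed the adjusted p. No test was run of the late-gain windows against other windows.

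Methylation also rose over most of the genome. Library medians of TET_KO were 12.8 points higher on D2 than on D1. With each library centred on its own median, 625 late-gain windows were still called higher and 0 lower, with a median of 13.5 points. The split over all windows turned round under centring, to 3301 higher (0.743%) and 21718 lower (4.89%), against 292246 higher and 19 lower as deposited. The 1685 windows with the same TET_WT change that were already at 30% or more in naive TET_KO cells had a median TET_KO gain of 18.8 points, and 41.4% of them were called at 20 points. They also began higher, at 42.6% on D0 and 48.8% on D1 in TET_KO, and reached 67.9% on D2. The 35010 windows that were low in both lines and gained under 25 points in TET_WT had a median TET_KO gain of 2.3 points.

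**Figure D2:**
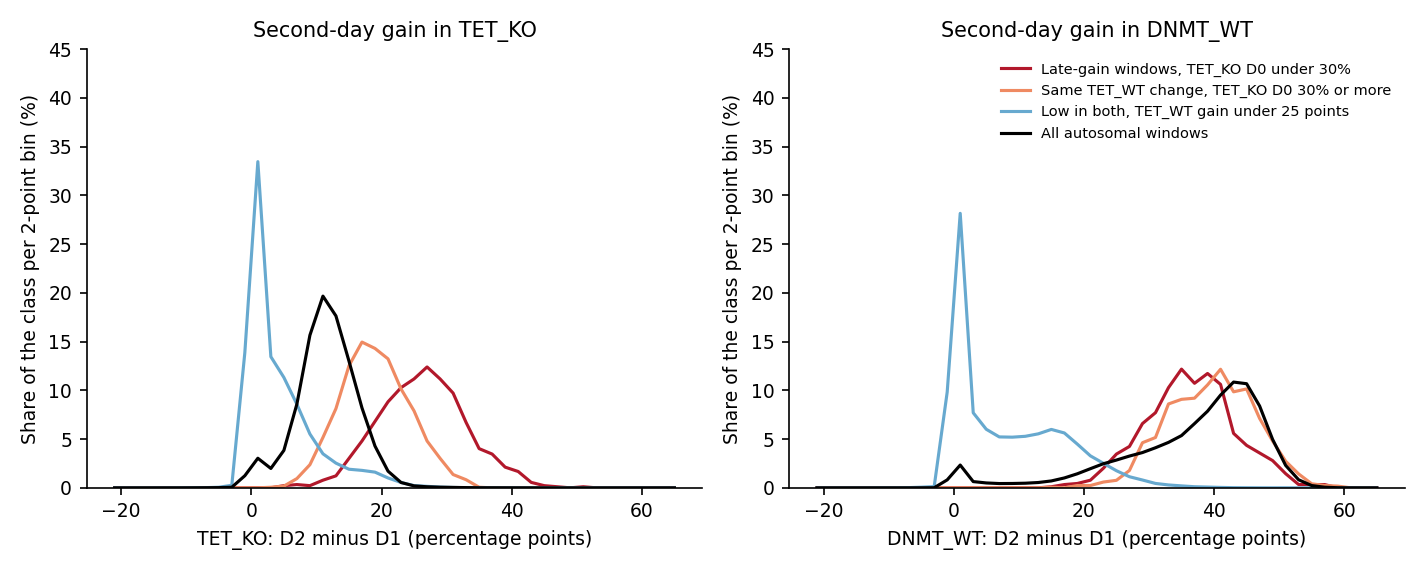
Share of each window class (%, y axis) by D2 minus D1 difference in percentage points (x axis, bins of 2 points), for TET_KO on the left and DNMT_WT on the right. In TET_KO the late-gain windows peak to the right of all other classes, with a median of 26.3 against 11.6 points over all autosomal windows. In DNMT_WT they peak slightly to the left of all windows, with medians of 36.2 and 39.5 points.

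DNMT_WT, a wild-type line that took no part in choosing the windows, had the same order of events, as did its genome as a whole. Over all autosomal windows DNMT_WT averaged 3.17% on D0, 13.7% on D1 and 49.9% on D2, so the order is not particular to these windows. From D0 to D1 it was called higher in 126 of the 895 windows (14.1%), where the background was 49.0% of all windows. The median first-day difference was 6.60 points in the late-gain windows and 10.0 points over all autosomal windows. At any size 699 (78.1%) were past the adjusted p, against 73.2% of all windows, so the lower share on the first day was seen with the 10-point minimum and not without it. With libraries centred on their medians 0 late-gain windows were called in either direction, the median being -3.70 points, against 9.03% of all windows higher and 2.99% lower. From D1 to D2 all 895 were called higher, where the background was 94.9%. The median second-day gain of DNMT_WT was 36.2 points, with a range of 15.3 to 57.8, and the median over all autosomal windows was 39.5 points. With libraries centred, the direction turned: 19 late-gain windows were higher and 174 lower, against 2.62% of all windows higher and 25.4% lower. The second-day step of DNMT_WT was called larger than its first-day step in 893 windows (99.8%), against a background of 93.2%, by a median of 29.5 points. On a log2 ratio scale the step was called larger in 418 (46.7%), against 49.0% of all windows. Centred, the step was called larger in 42 and smaller in 58, against 2.29% and 20.5% of all windows.

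On D0, DNMT_WT was called lower than TET_WT in 3 of the 895 windows (0.335%), where the background was 88.9%. At any size 228 were past the adjusted p, where the background was 93.8%. The median difference was -2.44 points in the late-gain windows and -22.7 points over all autosomal windows. The windows with TET_KO of 30% or more on D0 had 2.43% called and a median of -4.73 points, and those low in both lines 2.17% and -0.524 points. All 3 classes share the TET_WT limit on D1, and 890 of the late-gain windows had a higher TET_WT mean on D1 than on D0. On D0 TET_WT had a mean of 3.51% and a median of 3.06% over the late-gain windows. Methylation cannot be negative, so almost none of them could show a deficit of the minimum size in DNMT_WT. The small share called was thus set by the choice of windows, and no conclusion about the lines is drawn from it. Centring on library medians, which differed by -22.9 points, turned the late-gain windows to 894 higher and 0 lower, where 15.8% of all windows were higher and 13.5% lower. With differences so small as deposited, removing that shift is enough to give this turn, so it is not a separate result. The largest deficit of DNMT_WT as deposited was near Tmprss12, where DNMT_WT had 1.33, 0.314 and 1.28% and TET_WT 11.6, 17.2 and 16.1%.

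On D2 TET_KO was called higher than DNMT_WT in 389 of the 895 windows (43.5%), with a background of 88.0%, and lower in 14 (1.56%), with a background of 0.0524%. The median difference was 8.78 points in the late-gain windows and 19.8 points over all autosomal windows. Genotype and line cannot be told apart in this comparison. Library medians differed by 23.7 points, and centring on them turned the split to 0 higher and 684 lower, against 14.3% of all windows higher and 22.4% lower. The second-day gain itself was called smaller in TET_KO than in DNMT_WT in 464 windows (51.8%), with a background of 84.9%, and larger in 0. Without the minimum of 10 points, 8 late-gain windows had a larger gain in TET_KO past the adjusted p, where the background was 0.179%. The median difference of the gains was -10.3 points in the late-gain windows and -27.3 points over all autosomal windows, and centring turned it to 803 larger and 0 smaller, against 26.7% of all windows larger and 9.14% smaller.

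The higher a window already was in naive TET_KO cells, the higher it ended. The 13 windows under 5% on D0 averaged 3.26% on D0, 5.92% on D1 and 37.3% on D2 in TET_KO. The 339 windows between 25 and 30% averaged 27.5% on D0, 32.8% on D1 and 57.2% on D2 in the same line. The median second-day gain was 30.0 points in the lowest band and 24.5 points in the highest. Across the 895 windows TET_KO on D0 and TET_KO on D2 had a Pearson r of 0.579. The second-day gains of TET_KO and DNMT_WT had an r of 0.573. The windows of a correlation share libraries, so these are descriptions. The thresholds cut through a continuum. The 3 windows just inside the TET_WT limit of D1 had 55.6, 67 and 52.2% in TET_KO on D2, and the 3 just outside had 43.5, 58.9 and 52.7%. At the limit on the TET_WT gain the windows just inside had 42.8, 47.6 and 52.4%, and those just outside 38.4, 51.9 and 53.1%. At the TET_KO limit of D0 the windows just inside had 49.9, 54.3 and 51.7%, and those just outside 45.4, 54.6 and 46.6%. The windows on both sides of each limit thus overlapped on D2.

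The 10 windows lowest in TET_KO on D0, a value the rule used, lay in or nearest to Esrrb, Tbx3, Klf4 (47.6 kb away), Cdkn1a (16.5 kb), Fbrsl1 (18.1 kb), Arhgef10l, Apobec3, Erich1 (10.0 kb), Tcl1 and Ildr1. The Esrrb window at chr12:86501902-86504992, inside the gene body, was lowest of all. Esrrb is an orphan nuclear receptor that sustains naive self-renewal. In TET_KO this window had 0.601, 1.95 and 0.845% on D0, 2.35, 3.64 and 3.55% on D1, and 44.6, 45.5 and 33.4% on D2. DNMT_WT had 0.816, 1.82 and 2.37% on D1 and 46.7, 40.7 and 41.0% on D2, and TET_WT had 31.1, 27.8 and 27.3% on D2. In TET_KO and in DNMT_WT the D2 libraries stood far above the D1 libraries. The second-day gain was 38 ± 1.88 points in TET_KO (SE, limma adjusted p = 2.6e-14) and 41.1 ± 1.88 points in DNMT_WT (limma adjusted p = 4.6e-18). The difference between these gains, -3.14 ± 2.66 points, did not pass (limma adjusted p = 0.26).

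Esrrb held 6 late-gain windows in its body, the most of any gene, a count looked up after the values were seen. An adjoining pair at chr12:86476153-86480340 and chr12:86480341-86483253 had TET_KO gains of 44.2 ± 2.54 and 44.0 ± 2.67 points (SE), among the 5 largest. The first of the pair had 57.4, 57.8 and 48.6% on D2 and 10.6, 10.1 and 10.7% on D1 in TET_KO. Across the 6 windows TET_KO means ran from 1.13 to 26.4% on D0 and from 41.2 to 65.6% on D2, and TET_WT means on D2 ran from 28.7 to 52.4%. All 6 were called higher on D2 than on D1 in TET_KO and in DNMT_WT, as were 99.2 and 100% of the late-gain windows. The gene thus held windows that were almost free of methylation in naive TET_KO cells and windows near the 30% limit.

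Nanog, a homeodomain factor of the same circuit, had a window in its body at chr6:122709508-122713698 and another 0.905 kb outside it. In the body window TET_KO had 66.3, 70.5 and 62.4% on D2 and 31.1, 28.5 and 30.1% on D1, and DNMT_WT had 51.9, 57.6 and 59.3% on D2 and 9.86, 10.5 and 10.5% on D1. TET_KO was above DNMT_WT in each library of each day. The gains were 36.5 ± 2.09 points in TET_KO and 46.0 ± 2.09 points in DNMT_WT (SE), and their difference was -9.49 ± 2.96 points (limma adjusted p = 0.0039), short of the 10-point minimum. Tfcp2l1, a transcription factor downstream of LIF and of GSK3 inhibition, held 3 late-gain windows, with TET_KO means of 56.5 to 57.7% on D2 and 18.2 to 28.6% on D1. The Klf4 window in the body of this Krüppel-like factor averaged 42.6% ± 0.726 on D2 in TET_KO and 52.9% ± 2.46 in DNMT_WT (SD, n = 3 each), and the difference of -10.3 points was called.

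Tbx3, a T-box factor, held the late-gain window with the next lowest naive TET_KO level, at chr5:119674028-119675949. TET_KO had 30.0, 35.5 and 28.1% on D2 and 4.20, 4.98 and 4.87% on D1, and DNMT_WT had 47.8, 57.4 and 49.5% on D2 and 11.8, 12.2 and 9.98% on D1. The lines did not overlap on either day, with DNMT_WT above. On D2 TET_KO minus DNMT_WT was -20.4 ± 1.78 points (SE, limma adjusted p = 2e-11), and TET_WT, at 29.5, 35.7 and 31.4%, overlapped TET_KO. The adjoining Tbx3 window, chr5:119675950-119680492, went the other way: TET_KO averaged 22.9% on D1 and 41.6% on D2, and DNMT_WT 13.4 and 36.9%. There the D2 difference of 4.66 points was under the 10-point minimum. The difference of the gains, -4.84 ± 2.88 points (SE), did not pass (limma adjusted p = 0.11). The window around the Tcl1 start printed above had 27.8, 34.1 and 34.7% on D2 and 4.59, 6.81 and 6.55% on D1 in TET_KO. In DNMT_WT it had 43.2, 43.4 and 43.1% on D2. Its TET_KO gain was 26.2 ± 1.26 points (SE, limma adjusted p = 1.4e-14), and the gain of TET_KO minus that of DNMT_WT was -12.7 points (limma adjusted p = 1.6e-07).

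**Figure D3:**
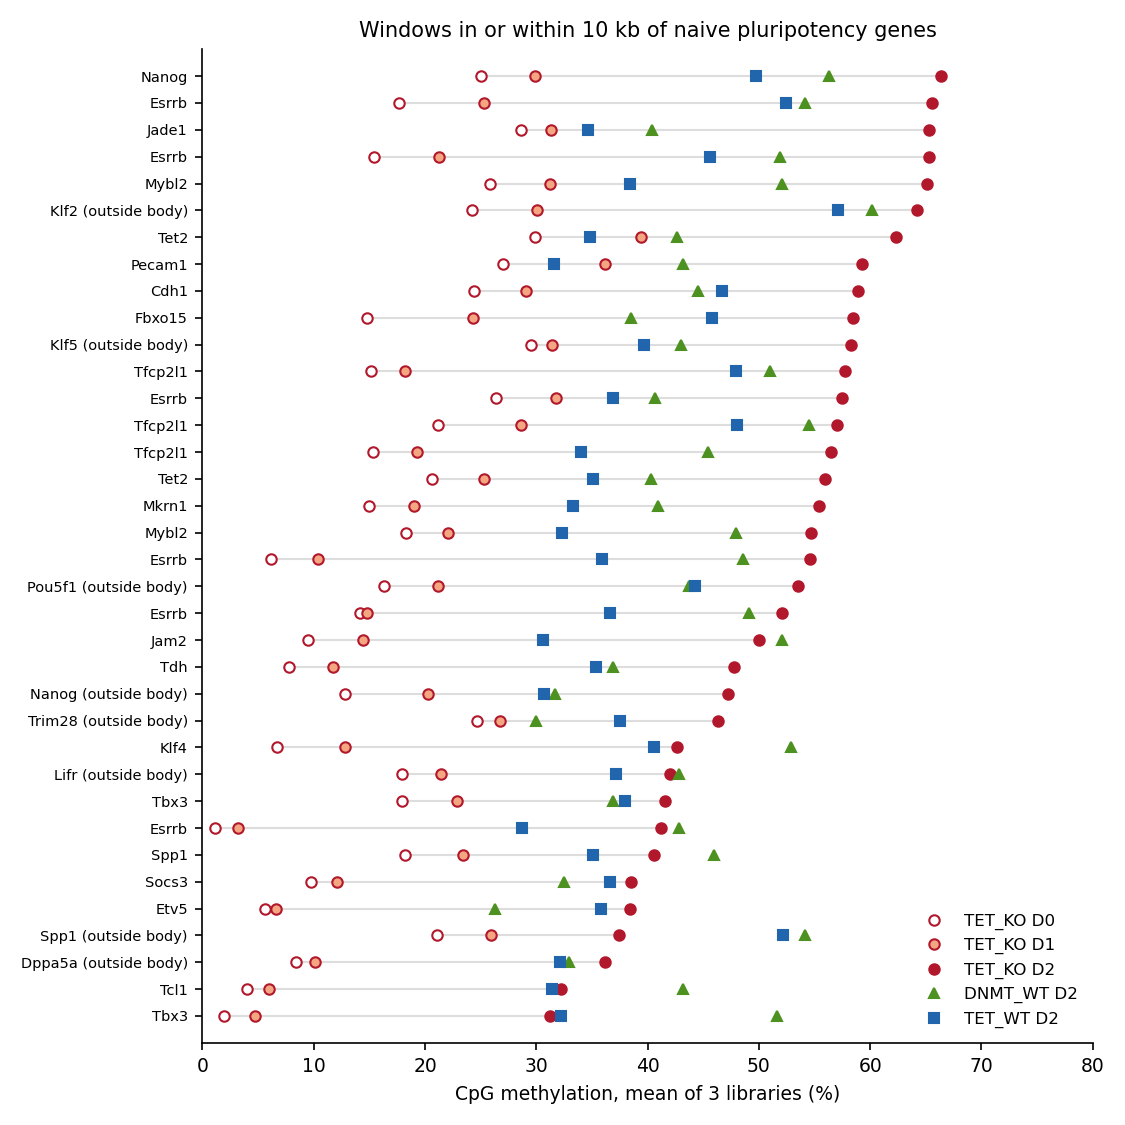
Mean CpG methylation of 3 libraries (%, x axis) in the 36 late-gain windows in or within 10 kb of naive pluripotency genes, ordered by TET_KO on D2. Circles are TET_KO on D0, D1 and D2, triangles DNMT_WT on D2 and squares TET_WT on D2. TET_KO on D1 lies nearer to D0 than to D2 in every row, and the D2 circles lie 11.5 to 44.2 points to the right of D1.

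Of 55 autosomal naive pluripotency genes, 24 (43.6%) had a late-gain window in the body or within 10 kb, and 18 (32.7%) had one in the body. Among all 20665 autosomal protein-coding genes the shares were 3.63% and 2.27%. The median body was 13.7 kb in the naive list and 17.5 kb over all genes. The 24 genes were the transcription factors Nanog, Esrrb, Tfcp2l1, Klf2, Klf4, Klf5, Tbx3, Pou5f1, Mybl2 and Etv5, the signalling genes Lifr and Socs3, the chromatin genes Tet2, Trim28 and Jade1, the adhesion genes Pecam1, Jam2 and Cdh1, and Dppa5a, Tdh, Tcl1, Spp1, Fbxo15 and Mkrn1. Many also had comparison windows within 10 kb, with the same TET_WT change and a higher TET_KO level on D0. Klf5, Jade1 and Cdh1 had 4 each beside 1 late-gain window, Mybl2 4 beside 2, Pecam1 3 beside 1 and Klf2 2 beside 1. Esrrb had 3 beside 6. Tdh, Jam2, Pou5f1, Tet2, Lifr, Etv5, Mkrn1 and Trim28 had as many of each kind. Nanog, Tfcp2l1, Klf4, Tbx3, Dppa5a, Tcl1, Spp1, Fbxo15 and Socs3 had no comparison window. The 36 late-gain windows averaged 16.6, 21.2 and 51.6% in TET_KO on D0, D1 and D2. In DNMT_WT they averaged 0.552, 6.84 and 44.5%, and in TET_WT 1.81, 6.83 and 38.7%. All 36 were called higher on D2 than on D1 in TET_KO and in DNMT_WT, with medians of 31.2 and 38.9 points. These calls held for 99.2% of the 895 late-gain windows in TET_KO and 100% in DNMT_WT. Over all windows they held for 65.8 and 94.9%. With libraries centred on their medians, 31 of the 36 were called higher in TET_KO, with a median of 18.4 points. In DNMT_WT the direction turned, with 0 called higher, 6 lower and a median of -1.64 points. Centred counts among the 895 were 625 higher in TET_KO, and 19 higher and 174 lower in DNMT_WT. Over all windows, centred, 0.743% were higher in TET_KO, and 2.62% higher and 25.4% lower in DNMT_WT. From D0 to D1, 5 of the 36 were called in DNMT_WT, against 14.1% of the 895 and 49.0% of all windows. The list was chosen with results of these data known and has no test of its own.

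The other lists had late-gain windows within 10 kb of 0 to 14.8% of their genes, beside the 3.63% of all protein-coding genes. Formative and primed epiblast genes had them at 0 of 35 genes and 2-cell-like genes at 0 of 26. Germline genes had them at 4 of 74 (5.41%), haematopoietic and endothelial genes at 4 of 50 (8.0%), imprinted loci at 3 of 56 (5.36%), methylation machinery genes at 3 of 26 (11.5%) and ubiquitously expressed genes at 4 of 27 (14.8%). The haematopoietic genes were Runx3, Kit, Zfpm1 and Pecam1, of which Runx3 is a Runt-domain factor and Kit the receptor of stem cell factor. The machinery genes were Tet2, Trim28 and Kdm2b. The Tet2 windows had TET_KO means of 62.3 and 55.9% on D2, and TET_WT means of 34.8 and 35.1%. The comparison windows, already at 30% or more in naive TET_KO cells, lay within 10 kb of 36.4% of the naive genes and of 6.88% of all protein-coding genes. They also lay at 11.4% of formative genes and 30.8% of machinery genes.

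**Figure D4:**
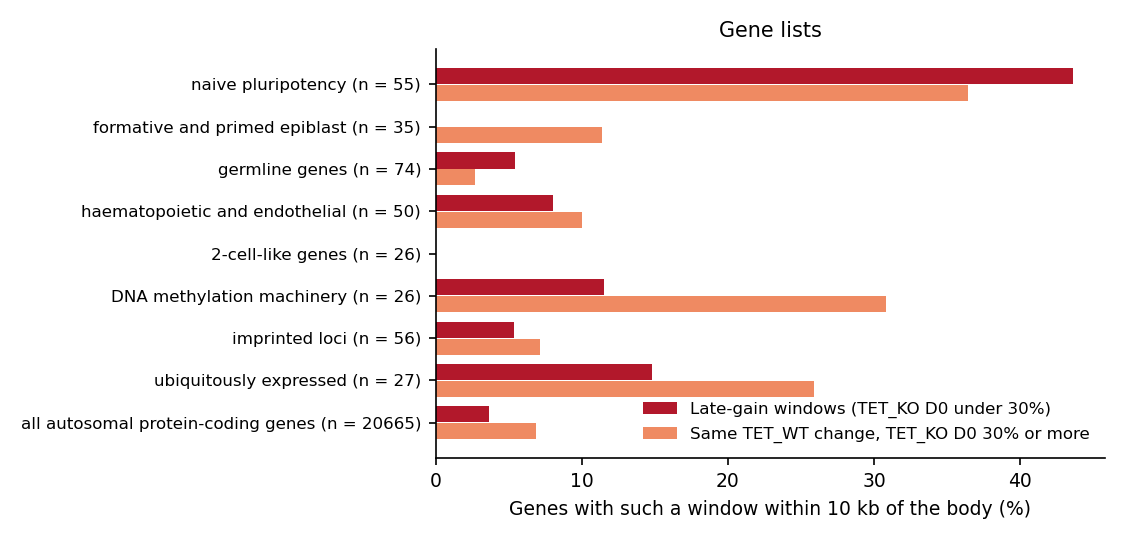
Share of the genes of each list (%, x axis) with at least 1 window in the body or within 10 kb, for the late-gain windows (dark bars) and for windows with the same TET_WT change and TET_KO of 30% or more on D0 (light bars); n is the number of autosomal genes. The naive pluripotency list stands at 43.6% in the late-gain windows, and all protein-coding genes stand at 3.63%.

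The late-gain windows were less methylated than the windows beside them on every day and in each line, and in TET_KO and TET_WT the gap was smaller on D2 than on D1 or D0. In TET_KO they averaged 21.4% on D0, with 41.9 and 40.9% in the windows before and after them that were not late-gain windows. On D2 the same means were 52.4% in the late-gain windows, and 63.1 and 61.9% beside them. The TET_WT means on D2 were 40.3% within, and 48.7 and 48.0% beside, and on D1 they were 9.06% within, and 22.7 and 22.5% beside. DNMT_WT had 43.9% within, and 50.1 and 49.0% beside on D2, and 7.53% within, and 14.1 and 13.7% beside on D1, a gap of like size on both days. The dip at the late-gain windows is set by the rule on D0 in TET_KO and on D1 in TET_WT. In the comparison windows TET_KO on D0 had 42.6% within, and 45.9 and 46.6% beside, so those showed a shallower dip. Most late-gain windows stood alone: 742 had no adjoining late-gain window, 66 pairs adjoined, and 7 runs held 3.

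**Figure D5:**
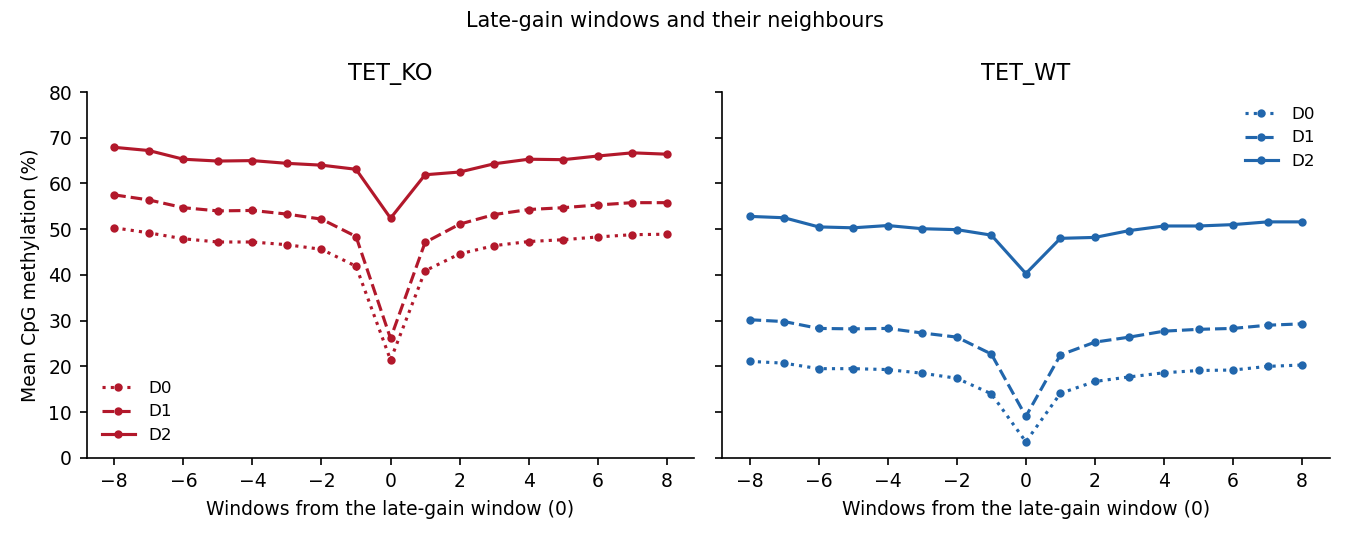
Mean CpG methylation (%, y axis) of the late-gain windows (0 on the x axis) and of the 8 windows on each side that were not late-gain windows, in TET_KO (left) and TET_WT (right) on D0, D1 and D2. The dip in TET_KO is 21.4% against 41.9 and 40.9% beside it on D0, and 52.4% against 63.1 and 61.9% on D2.

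Runs of 3 described here lay in Sgk1, in Llgl2, a cell polarity gene, in or near Arl14epl, at She and Il6ra (Il6ra encodes the interleukin-6 receptor), in Gtf2ird1, a transcription factor gene, and in Mras, a gene of a Ras-like GTPase. The Sgk1 run covered chr10:21977372-21981435, chr10:21981436-21986174 and chr10:21986203-21991522, and the starts printed above lie in the first and second of these windows. In the first, TET_KO had 56.8, 58.9 and 50.9% on D2 and averaged 16.8% ± 2.05 on D1 (SD, n = 3). In the second it had 61.3, 65.2 and 57.4% on D2 and 28.6, 29.2 and 32.3% on D1. DNMT_WT had 49.7, 46.1 and 42.2% on D2 in the first and 48.5, 42.0 and 45.9% in the second. The TET_KO gains in the run were 38.7 ± 1.84, 31.3 ± 1.80 and 28.0 ± 2.02 points (SE), all called. Other genes with several late-gain windows in the body, counted after the values were seen, were Ror2 and Sgk1 with 5 each and Tns3 with 4, of which Ror2 encodes a receptor of Wnt5a.

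CpG density lay between that of the low windows and that of all windows. The median length was 3424 bp, against 1185 bp in windows low in both lines with a small TET_WT gain and 4949 bp over all autosomal windows. The shorter a window of 100 CpGs, the denser its CpGs, and the medians were 29.2 CpGs per kb in the late-gain windows and 20.2 over all. Of the late-gain windows, 63.4% overlapped the body of a protein-coding gene, against 52.4% of all autosomal windows. A RefSeq start lay in 67 of the 867 windows off chromosome 18 (7.73%), against 6.48% of all and 31.1% of the low windows. The comparison windows, at 30% or more in TET_KO on D0, had 79.6% in a protein-coding body, 5.02% with a start and 48.4% within 10 kb of one, with a median length of 3237 bp. Within 10 kb of a start lay 48.1% of the late-gain windows and 30.3% of all. Chromosome 11 held 99, which is 4.06 per 1000 of its complete windows, and chromosome 13 was lowest at 1.18 per 1000. Exons and introns could not be separated, since the annotation used gives gene bodies and starts alone.

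At the extremes of the TET_KO response, Jdp2, a repressor of AP-1 activity, held the window with the greatest second-day gain, at chr12:85619233-85622632. TET_KO had 70.3, 73.5 and 70.8% on D2 and 22.3, 18 and 21.7% on D1, a gain of 50.9 ± 1.99 points (SE, limma adjusted p = 6.2e-16). DNMT_WT had 63.3, 64.7 and 63.8% on D2 and TET_WT 58.5, 68.1 and 60%, so the window was high in every line. The smallest gain was 4.23 kb from Tmprss12, at chr15:100272394-100276609. There TET_KO had 12.6, 10.6 and 9.33% on D2 and 4.65, 4.28 and 5.84% on D1, a gain of 5.92 ± 1.57 points. DNMT_WT had 32.0, 34.0 and 34.4% on D2 and TET_WT 43.9, 42.8 and 35.7%. This was the late-gain window with the lowest TET_KO level on D2, and its libraries did not overlap those of the wild-type lines on that day. The window was also the exception on D0: TET_KO had 6.76, 2.28 and 3.15% and TET_WT 11.6, 17.2 and 16.1%.

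Small TET_KO gains were also found in Sfrp1, a secreted Wnt antagonist, and near Bmp7, a bone morphogenetic protein. The Sfrp1 window had 36.0, 36.2 and 31.0% on D2 and 28.2, 28.6 and 27.4% on D1 in TET_KO, and 36.4, 34.0 and 37.2% on D2 and 15.3, 13.9 and 15.1% on D1 in DNMT_WT. The lines overlapped on D2 and did not on D1. The gains differed by -14.7 ± 1.86 points (SE, limma adjusted p = 2.7e-08). At the other end, Fblim1, an adaptor of filamin, had a window 0.605 kb away with 43.1, 42.6 and 39.0% on D2 in TET_KO and 21.7, 16.1 and 20.6% in DNMT_WT. TET_KO was called higher there by 22.1 ± 1.59 points (SE), and its gain exceeded that of DNMT_WT by 9.66 ± 2.24 points, the most of any late-gain window, which is under the 10-point minimum.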

How the data were processed

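Per the submitters' processing notes, reads were trimmed with Trim Galore 0.6.6 and cutadapt 2.3 and aligned and called with Bismark 0.23.0 on GRCm38. The authors deposited a percent methylation for each library and window. Coverage filters and the filling of the windows are not given in the sources used here, so thinly covered windows cannot be told from deeply covered ones.

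Of 453245 windows, the 444250 nuclear windows with a value in all 27 libraries were fitted as deposited with limma 3.58.1 in R 4.3.3 (lmFit and eBayes with trend), using a mean for each of 9 groups, with Benjamini-Hochberg adjustment over all windows. Calls needed an adjusted p below 0.05 together with 10 points or more. In data simulated for TET_KO from D1 to D2, 22, 45, 50 and 50 of 50 windows changed by 10, 15, 20 and 30 points were called, with 2 of 444050 unchanged windows. Any 2 libraries shared at most 0.011% identical values above 0. The deviations of same-numbered libraries from their group means had correlations of -0.0549 to 0.057 over 108 pairs, so numbers were not used as pairs.

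The windows, gene lists and tests were chosen with earlier results of these data known. Windows were named by rule: extremes of each tested contrast and of TET_KO on D2 and D0 and the TET_WT gain, windows at the thresholds, runs of 3 or more, and windows in or within 10 kb of a listed gene. Genes counted by windows in the body were named after their values were seen. A window takes the name of the gene it overlaps or else of the nearest. Gene bodies, starts and sequences are from RefSeq on GRCm38.p6. Python 3.11.15 served for the rest, with pandas 2.3.3, numpy 2.4.6 and matplotlib 3.10.9. 1 run of 3 windows is not reported here.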

Additional observations from a re-analysis of the deposited data

Results flagged for a closer look

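The second-day gain was smaller in TET_KO than in DNMT_WT in 464 late-gain windows, by the limma test of the difference of the gains with at least 10 points, where 84.9% of all windows were called. The windows named here had the most negative differences, TET_KO minus DNMT_WT. The window 2.98 kb from Spp1 differed by -31.1 points: TET_KO had 37.1, 35 and 40.3% on D2 and 23.2, 29.0 and 25.5% on D1, and DNMT_WT had 50.1, 56.3 and 55.9% on D2 and 10.2, 11.4 and 12.7% on D1. The Tulp2 window differed by -30.2 points, the window near Slc35b4 by -25.8 points, the Slc6a7 window by -25.7 points and the 1700024J04Rik window by -25.0 points. Line and genotype cannot be told apart in these differences.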

How the results depend on the processing

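Depth is not given, so its limit on each value is unknown. Without the trend, with only the libraries of the contrast, and in the windows of 500 bp to 20 kb, every count of windows and of late-gain windows stayed within 1.5 times and kept its direction. With a replicate block the TET_KO second-day gain was called in 99.2% of late-gain windows and the block moved no other count by over 1.5 times. On a log2 ratio scale the larger second step of DNMT_WT was called in 217648 windows and 46.7% of late-gain windows; other counts stayed within 1.5 times.

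Centring on library medians turned these calls: over all windows, TET_KO D1 to D2 to 21718 lower, DNMT_WT D1 to D2 to 112625 lower, DNMT_WT against TET_WT on D0 to 70019 higher, TET_KO against DNMT_WT on D2 to 99613 lower, the difference of gains to 118692 higher and the steps of DNMT_WT to 90947 lower; in late-gain windows, 19.4% lower in DNMT_WT D1 to D2, 99.9% higher in DNMT_WT against TET_WT, 76.4% lower in TET_KO against DNMT_WT, 89.7% higher in the difference of gains and 6.48% lower in the steps. First-day calls of DNMT_WT under centring were 40126 windows and 0% of late-gain windows. Centred TET_KO second-day differences turned to -1.25 (Spp1), -6.86 (Tmprss12), -6.80 (Bnip5), -6.45 (Sfrp1), -5.68 (Bmp7) and -5.64 points (Tesc), those of DNMT_WT to -25.1 (8030462N17Rik), -23.6 (Slc38a1), -23.4 (Gna15), -13.9 (Nanog) and -7.99 points (Esrrb), and the differences of gains to 1.89 (Slc35b4), 1.94 (Slc6a7) and 2.66 points (1700024J04Rik). By construction centring subtracts each library's median. Of 63 differences of named windows, 12 others kept their side and lost their call under centring, and 37 changed neither side nor call. No other setting, leaving out libraries included, changed a call among the 63.

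At 20 points the calls were 12719 windows for TET_KO D1 to D2, 43811 for DNMT_WT D0 to D1 and 223485 for TET_KO against DNMT_WT on D2, and 0% of late-gain windows for DNMT_WT D0 to D1 and for DNMT_WT against TET_WT on D0, 4.58% for TET_KO against DNMT_WT and 4.47% for the difference of gains. At 20 points the shares of all autosomal windows were 10.1% for DNMT_WT D0 to D1 and 61.2% for DNMT_WT against TET_WT on D0. For TET_KO against DNMT_WT the share was 49.2%, and for the difference of gains 69.5%. With no minimum the calls were 78.1% of late-gain windows for DNMT_WT D0 to D1 and 25.5% for DNMT_WT against TET_WT on D0. The matching shares of all windows were 73.2 and 93.8%. For TET_KO against DNMT_WT they were 75.8% of late-gain windows, and 399834 of the 422141 autosomal windows. With other thresholds of the choice, DNMT_WT D0 to D1 calls were 5.95% at TET_WT D1 under 10%. DNMT_WT against TET_WT calls were 0% at TET_WT D1 under 10%, at a gain of 30 points and where every replicate met the thresholds, 2.97% at D1 under 20%, 0.785% at a gain of 20 points and 0.543% at TET_KO D0 under 35%.

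The number of late-gain windows was 521 at TET_WT D1 under 10%, 1656 and 455 at gains of 20 and 30 points, 556 at TET_KO D0 under 25% and 306 where every replicate met the thresholds. Mean levels moved by over 1 SD, in the order of D1 under 10 and 20%, gain of 20 and 30 points, TET_KO under 25 and 35% and every replicate, where they did: TET_KO D1 23.6, 27, 26.9, 22.0, 29.7 and 24.1% (not at a gain of 20 points); TET_KO D2 48.2, 56.2 and 49.5% (gains of 20 and 30, under 25%); DNMT_WT D0 0.615, 0.614, 0.782 and 0.615% (D1 under 10%, TET_KO limits, every replicate); DNMT_WT D1 6.45, 8.09, 6.99, 8.19, 7.03 and 7.96%; DNMT_WT D2 42.4, 44.8, 39.3, 47.7, 42.9, 44.6 and 46.8%; TET_WT D0 2.37, 4.28, 3.95, 3.18, 2.84, 4.08 and 2.62%.

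Leaving out 1 library at a time gave 726 to 1039 late-gain windows. In that order of windows and late-gain windows, calls were 270762 to 313552 and 98.9 to 99.4% for TET_KO D1 to D2, 214460 to 219428 and 13.6 to 15.9% for DNMT_WT D0 to D1, 421561 to 421793 and 100% for DNMT_WT D1 to D2, 393785 to 394896 and 0.335 to 0.559% for DNMT_WT against TET_WT, 386017 to 394754 and 37.5 to 49.9% for TET_KO against DNMT_WT, 372609 to 380673 and 44.0 to 57.9% for the difference of gains, and 410558 to 413629 and 99.7 to 99.9% for the steps of DNMT_WT.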

Other observations

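On chromosome X, which the choice of windows left out, 11 of 18560 complete windows met the same thresholds. Mature miRNA genes inside late-gain windows were Mir135b, in a window where TET_KO averaged 43.2% on D2 and 19.7% on D1, and Mir7003, in an Mybl2 window where TET_KO averaged 65.1% on D2 and 31.2% on D1.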
